A study of Mus musculus with 23 samples.

Results

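The Hox genes described here are the 39 genes of the mouse Hoxa, Hoxb, Hoxc and Hoxd clusters among the 22784 gene symbols of an expression table that follows oocyte formation in culture and in the animal. They were chosen by name, a symbol made of Hoxa, Hoxb, Hoxc or Hoxd and a number, with earlier results of these data known. Each value is a level in FPKM, fragments per kilobase of transcript scaled to the number of mapped fragments, so levels of different genes can be compared per length. The Hoxa cluster had 11 members in the table, Hoxb had 10, and Hoxc and Hoxd had 9 each.

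RNA with poly(A) tails was sequenced from 23 samples in 8 groups, of which 7 had 3 samples and 1 had 2. The culture route (14 samples, strain cross C57BL/6 X 129) began with female embryonic stem (ES) cells kept in 2i+LIF, a medium with inhibitors of differentiation and the cytokine LIF. Day 6 primordial germ cell-like cells (PGCLCs, 2 samples) were induced from them by way of epiblast-like cells and purified by flow sorting. Reaggregated PGCLCs had spent 3 days with gonadal somatic cells of female E12.5 embryos. Secondary follicle oocytes came from such reaggregates at day 21, after a period with ICI182780, an estrogen receptor antagonist. Metaphase II (MII) oocytes, the mature eggs, followed after 11 days of follicle culture and 16 h of maturation. The animal route (9 samples, strain B6D2F1) held E12.5 primordial germ cells (PGCs), secondary follicle oocytes at 8 days after birth and MII oocytes of 8-week-old females. E12.5 PGCs and the secondary follicle oocytes of the animal were sorted by BVSC, a pair of fluorescent germ cell transgenes. Strain and route cannot be told apart.

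Hox genes encode homeodomain transcription factors that give cells their position along the head-to-tail axis of the embryo. Within a cluster the genes lie in the order in which they are used along that axis, from anterior (low numbers) to posterior (high numbers), and genes with the same number in different clusters are paralogs. Polycomb complexes hold the clusters silent in pluripotent cells, trithorax proteins keep active genes on, and the TALE proteins of the Pbx, Meis and Pknox families bind DNA together with Hox proteins. In the mouse, Prdm1 is needed for PGC precursors to keep Hox genes off while neighbouring mesoderm turns them on.

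The table held 1 value per gene and group, deposited by the authors, so no difference below has a replicate check, and neither a spread nor a p-value can be given. The read depth is unknown. Input was 99 to 134 cells for MII oocytes, 337 to 812 for secondary follicle oocytes and at least 5300 for ES cells and PGCLCs. For E12.5 PGCs it is not given. Zeros and low values are therefore compared across unlike inputs. Groups were compared as the difference of log2(FPKM + 1), which understates differences of low genes, and a gene is called higher or lower past 2-fold on that scale. Genes below 1 FPKM in all 8 groups were left out, and 14242 genes were compared. Of the 39 Hox genes, 13 were kept, a share to be read beside 62.5% of all genes. A Hox gene kept only through the group where it is high had to differ there, so the counts of called members describe these genes and support nothing further. In these bulk samples, fewer cells of a type and less RNA per cell cannot be told apart. The 5 oocyte markers were Zp3, Gdf9, Bmp15, Nlrp5 and Figla. They summed to between 8811 and 12028 FPKM in the 4 oocyte groups and to at most 8.01 FPKM in the others. The 5 germ cell markers summed to 32.8 FPKM in ES cells and to between 467 and 1336 FPKM elsewhere. Other lists were less restricted. The 4 pluripotent cell markers summed to 1456 FPKM in ES cells, 1113 FPKM in day 6 PGCLCs and at least 244 FPKM in every other group. Markers of granulosa cells, the somatic cells around the oocyte, summed to 12.4 FPKM in reaggregated PGCLCs and 2.33 FPKM in E12.5 PGCs. In ES cells the same markers summed to 25.3 FPKM, led by Gja1 at 14.7 FPKM, so the list is not specific to granulosa cells.

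**Figure D1:**
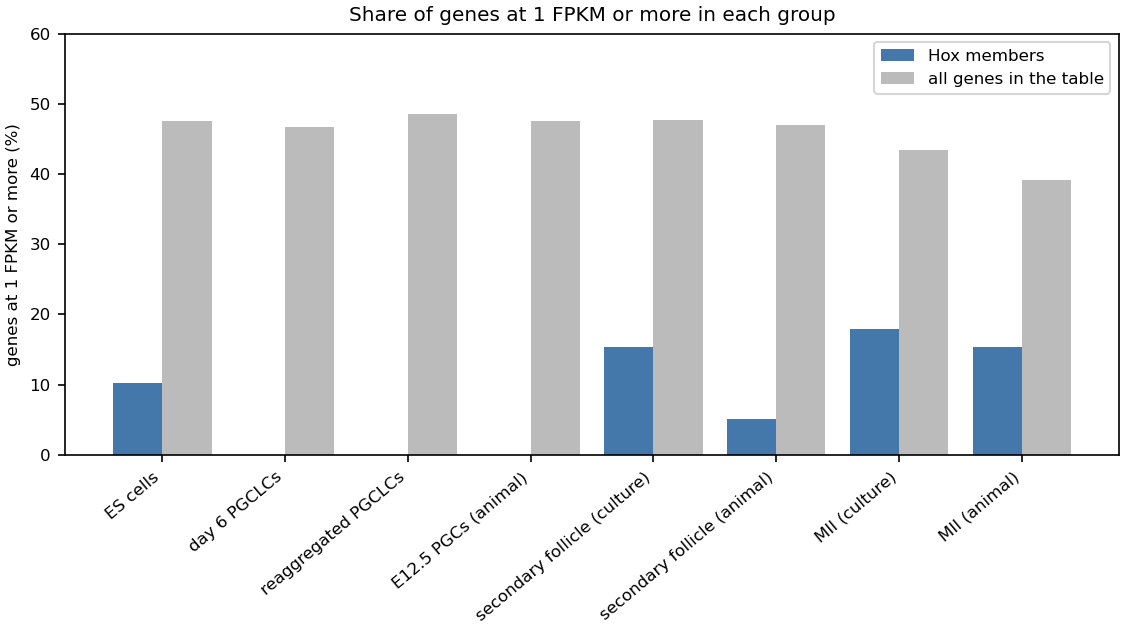
Share of the 39 Hox genes (blue) and of all 22784 genes (grey) with at least 1 FPKM, in percent, for each of the 8 groups. No Hox gene reaches 1 FPKM in the 3 germ cell groups before the oocyte, and 7 do in MII oocytes from culture.

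Hox levels were low almost everywhere. At least 1 FPKM was reached by 4 members in ES cells, where 47.5% of all genes reached it. In day 6 PGCLCs, reaggregated PGCLCs and E12.5 PGCs 0 members reached it, beside 46.7%, 48.5% and 47.6% of all genes. In secondary follicle oocytes 6 members reached 1 FPKM in culture and 2 in the animal, beside 47.7% and 47.0% of all genes. In MII oocytes 7 members did in culture and 6 in the animal, beside 43.5% and 39.1%. The plot of shares by group shows the Hox genes below all genes in each of the 8 groups. Between 4 and 19 of the 39 members were listed at exactly 0 in a group, the fewest in secondary follicle oocytes from culture and the most in MII oocytes of the animal, where 22.6% and 34.9% of all genes were listed at 0.

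**Figure D2:**
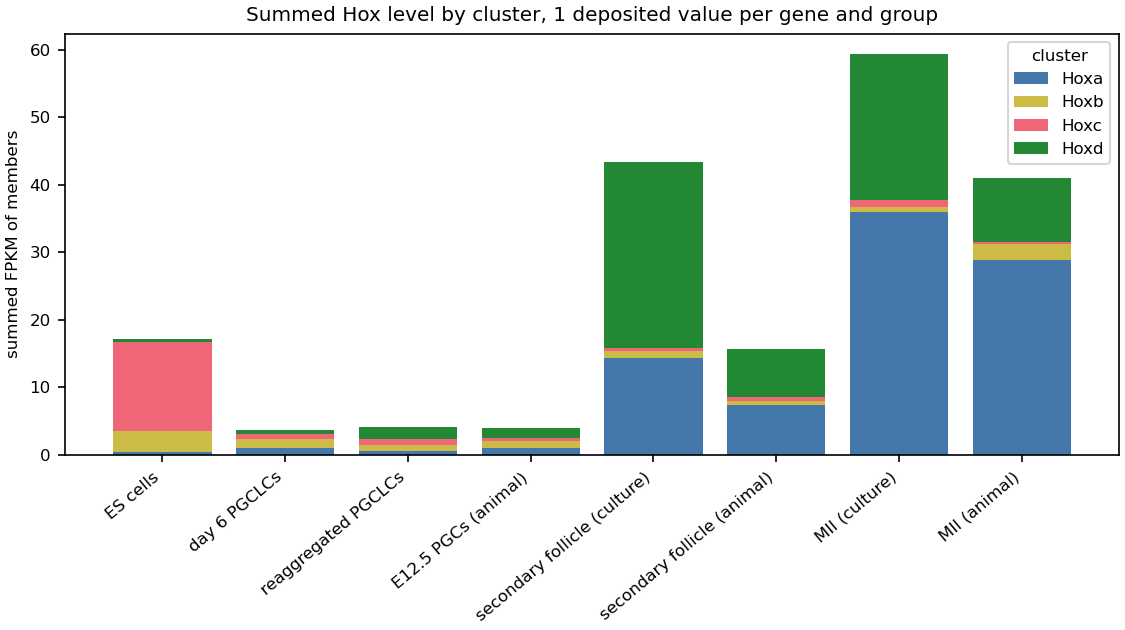
Summed FPKM of the 39 Hox genes in each group, stacked by cluster (Hoxa blue, Hoxb yellow, Hoxc red, Hoxd green). The sum is 17.1 FPKM in ES cells, at most 4.18 FPKM in the 3 germ cell groups and between 15.7 and 59.5 FPKM in the oocyte groups.

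Summed over all 39 members, the Hox level was 17.1 FPKM in ES cells, 3.72 FPKM in day 6 PGCLCs, 4.18 FPKM in the reaggregated PGCLCs and 4.04 FPKM in E12.5 PGCs. It was 43.3 FPKM in secondary follicle oocytes from culture and 15.7 FPKM in those of the animal, and 59.5 and 40.9 FPKM in the corresponding MII oocytes. Scaled to equal sums of all genes, the Hox sum was 22.4 FPKM in ES cells, and 54.0 and 19.6 FPKM in secondary follicle oocytes from culture and of the animal. It was then 42.1 and 18.3 FPKM in MII oocytes, so that MII fell below the secondary follicle in both routes. Both oocyte groups of the animal were then below ES cells. Secondary follicle oocytes of the animal (15.7 FPKM) were below ES cells (17.1 FPKM) without that scaling too. The stacked plot of these sums shows that the cluster in front changed with the stage. Hoxc genes held 77.2% of the Hox sum in ES cells. Hoxd genes held 63.4% in secondary follicle oocytes from culture, and Hoxa genes held 60.6% and 70.3% in MII oocytes from culture and of the animal. In secondary follicle oocytes of the animal Hoxa (46.7%) and Hoxd (45.8%) were close to equal. Hoxb genes held at most 5.95% and Hoxc genes at most 3.38% of the sum in any oocyte group.

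**Figure D3:**
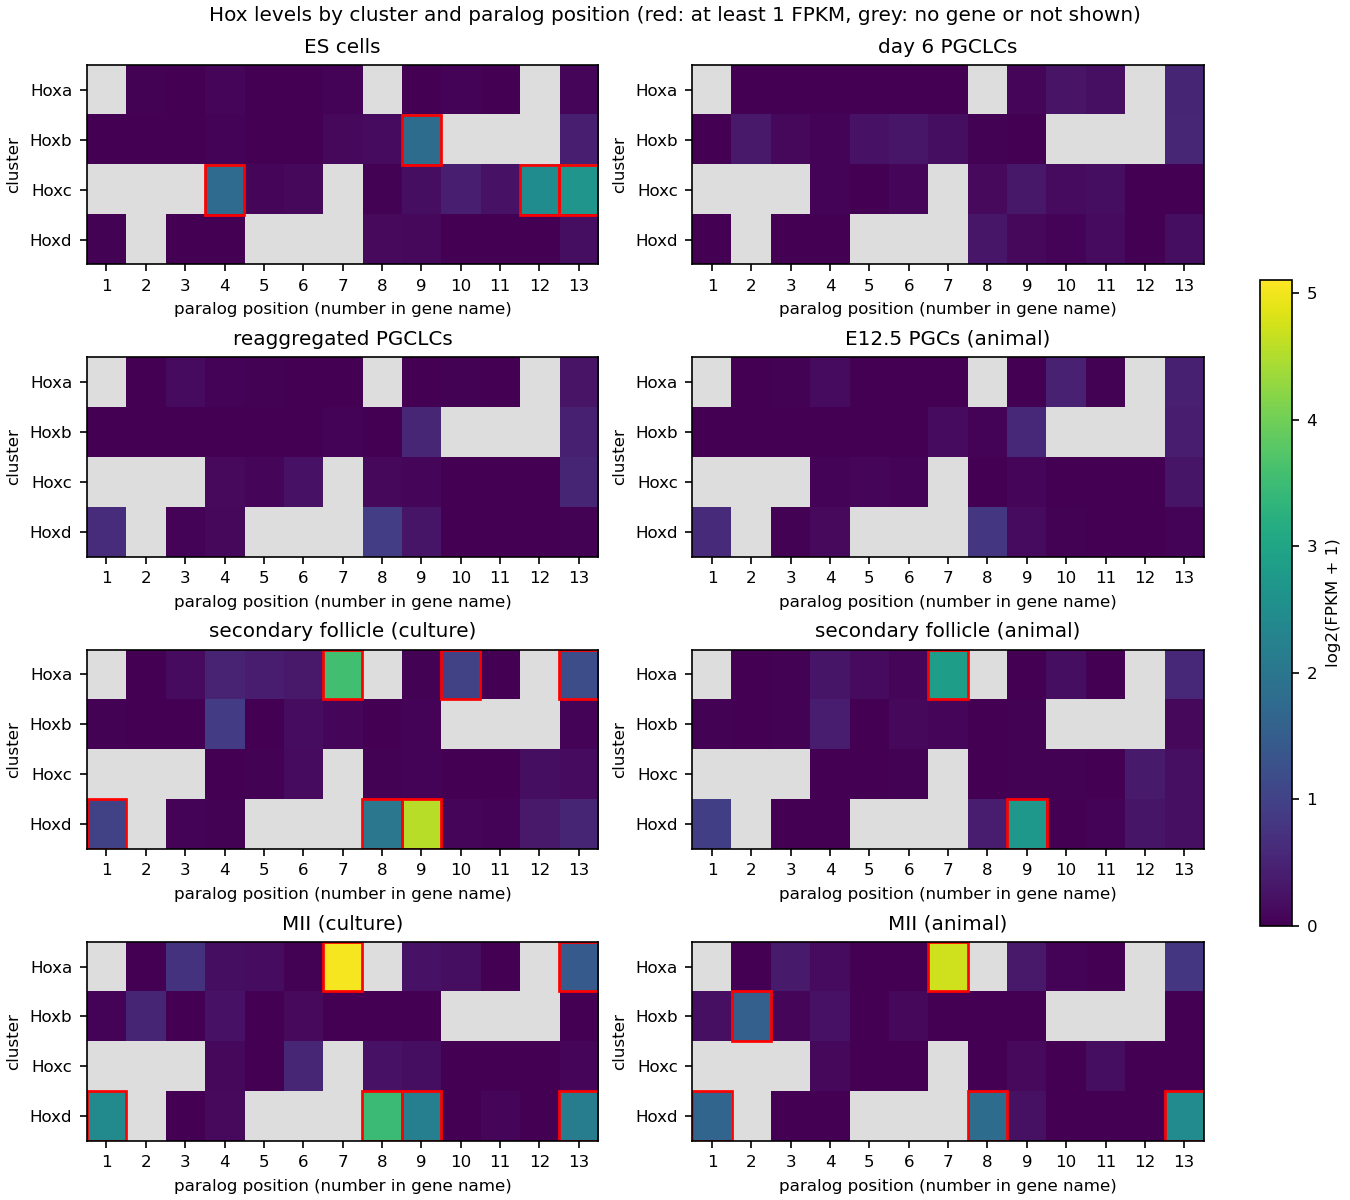
Levels of 38 Hox genes as log2(FPKM + 1) in 8 panels, 1 per group, with the cluster on the vertical axis and the number in the gene name on the horizontal axis; red frames mark at least 1 FPKM and grey marks a number that the cluster lacks or that is not shown. The framed genes are single genes or pairs, mostly in the Hoxc row in ES cells and in the Hoxa and Hoxd rows in oocytes, and no panel of the 3 germ cell groups has a frame.

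Sorted by place along the axis, 3 of 8 anterior members (numbers 1 to 3), 3 of 15 central members (4 to 8) and 7 of 16 posterior members (9 to 13) reached 1 FPKM in some group. By cluster these were 4 of 11 in Hoxa, 2 of 10 in Hoxb, 3 of 9 in Hoxc and 4 of 9 in Hoxd. The map by cluster and number shows single genes or adjacent pairs (Hoxc12 with Hoxc13, Hoxd8 with Hoxd9) standing out rather than longer runs of neighbours. Paralogs did not share a level: Hoxa7 reached 31.6 FPKM while Hoxb7 stayed at or below 0.138 FPKM, and Hoxd9 reached 22.5 FPKM while Hoxa9 and Hoxc9 stayed at or below 0.271 FPKM and Hoxb9 reached 2.51 FPKM, in ES cells. Number 13 had the most members above the mark, 3 of 4 (Hoxa13, Hoxc13 and Hoxd13). Numbers 3, 5, 6 and 11 had none. In ES cells the posterior genes held 80.6% of the Hox sum and in secondary follicle oocytes from culture 60.1%, while in MII oocytes the central genes held 72.6% in culture and 69.9% in the animal.

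In ES cells the 4 members above 1 FPKM were Hoxc13, Hoxc12, Hoxb9 and Hoxc4. Hoxc13, a posterior gene known for its part in hair formation, was at 5.36 FPKM in ES cells, 0.0132 in day 6 PGCLCs, 0.439 in the reaggregated PGCLCs, 0.223 in E12.5 PGCs, 0.107 and 0.159 in secondary follicle oocytes from culture and of the animal, 0.0652 in MII oocytes from culture and 0 in those of the animal. Hoxc12, its neighbour 7942 bases away, was at 4.57 FPKM in ES cells, at 0.136 and 0.296 FPKM in secondary follicle oocytes from culture and of the animal, and listed at 0 in the other 5 groups. Both were high in a single group, ES cells, and under 0.5 FPKM in all others. Hoxb9, a gene of the thoracic region, was at 2.51 FPKM in ES cells, 0 in day 6 PGCLCs, 0.464 in the reaggregated PGCLCs, 0.497 in E12.5 PGCs, 0.0391 and 0.0218 in secondary follicle oocytes from culture and of the animal, and 0 in both MII groups. Hoxc4, the most anterior gene of its cluster, was at 2.43 FPKM in ES cells and at most 0.0959 FPKM elsewhere, a value from reaggregated PGCLCs. The other groups gave Hoxc4 at 0.0331 FPKM in day 6 PGCLCs, 0.0315 in E12.5 PGCs, 0.00445 and 0 in secondary follicle oocytes from culture and of the animal, and 0.0773 and 0.0778 in the MII oocytes.

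Day 6 PGCLCs were compared with ES cells to follow entry into the germ line in culture. The same 4 genes were lower in day 6 PGCLCs, beside 12.0% of all compared genes that were lower past 2-fold. The log2 ratio was -2.65 for Hoxc13, -2.48 for Hoxc12, -1.81 for Hoxb9 and -1.73 for Hoxc4. No member was higher, beside 9.63% of all genes (21.6% in either direction). With a pseudocount of 5 in place of 1, Hoxc13 alone stayed past 2-fold, at a level where Hoxc12 gave -0.94, Hoxb9 -0.59 and Hoxc4 -0.56. Over the 13 compared members the median log2 ratio was -0.02, beside 0.00 over all genes. The Hoxc genes between these peaks stayed low in ES cells: Hoxc10 was at 0.343 FPKM and Hoxc11 at 0.182 FPKM, the highest values of each in the table.

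The 3 germ cell groups before the oocyte held no Hox gene at 1 FPKM. In day 6 PGCLCs the highest member was Hoxb13 at 0.471 FPKM, followed by Hoxa13 at 0.446 FPKM. Hoxd8 led among the reaggregated cells at 0.912 FPKM and among E12.5 PGCs at 0.757 FPKM, and its level there exceeded that of 50.9% and 50.4% of all genes. Hoxb1, an anterior gene that responds to retinoic acid in the embryo, was listed at 0 in day 6 PGCLCs and at most 0.163 FPKM in any group. Among the reaggregated cells and E12.5 PGCs Stra8, a germ cell gene switched on by retinoic acid, stood at 66.7 and 63.6 FPKM. A response of Hoxb1 to retinoic acid in these cells was not tested. Of the 26 members that never reached 1 FPKM, 8 had their highest value in day 6 PGCLCs, at most 0.471 FPKM. The share of all genes that peak in that group is not given here.

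Reaggregated PGCLCs and E12.5 PGCs were compared as the same stage from culture and animal. No Hox gene was higher in the reaggregated cells, beside 1.39% of all genes, and none lower, beside 0.786% (2.18% in either direction). The log2 ratios of the 13 members ran from -0.43 for Hoxa10 to 0.23 for Hoxc13, with a median of 0.01 beside 0.00 over all genes. Hoxa10 was at 0.0225 FPKM in the reaggregated cells and 0.376 FPKM in the animal. With a pseudocount of 0.1 its ratio became -1.96, which is past 2-fold, at levels under 0.5 FPKM in both groups. Between day 6 and reaggregated PGCLCs 0 members were higher and 0 lower, beside 5.15% and 5.04% of all genes (10.2% in either direction). The gene furthest up was Hoxd1 (log2 ratio 0.66), from 0 to 0.575 FPKM, and the next was Hoxd8 (0.63), from 0.232 to 0.912 FPKM.

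Of the 13 compared members, 9 had their highest value in an oocyte group, oocytes being 4 of the 8 groups. The share of all genes that peak in oocytes is not given here. Highest among the members were Hoxa7, Hoxd9 and Hoxd8. To show what lies at the starts of the genes that the results turn on, the 250 bases before the RefSeq start are given for these 3 and, as the ES cell counterpart, for Hoxc4. Hoxc13, Hoxc12 and Hoxb9, which were higher than Hoxc4 in ES cells, had no promoter entry. All come from the RefSeq promoter table for GRCm38.p6, 5′ to 3′ on the strand of the gene, with CG dinucleotides in capitals. The windows are chr6:52218574-52218823 (minus strand) for Hoxa7, chr2:74697513-74697762 (plus) for Hoxd9, chr2:74704365-74704614 (plus) for Hoxd8 and chr15:103034145-103034394 (plus) for Hoxc4.
Hoxa7: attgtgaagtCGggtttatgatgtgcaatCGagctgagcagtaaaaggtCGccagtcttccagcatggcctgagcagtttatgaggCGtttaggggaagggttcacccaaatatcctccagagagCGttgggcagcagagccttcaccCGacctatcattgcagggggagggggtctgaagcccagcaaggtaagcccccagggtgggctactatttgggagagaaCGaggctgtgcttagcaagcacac
Hoxd9: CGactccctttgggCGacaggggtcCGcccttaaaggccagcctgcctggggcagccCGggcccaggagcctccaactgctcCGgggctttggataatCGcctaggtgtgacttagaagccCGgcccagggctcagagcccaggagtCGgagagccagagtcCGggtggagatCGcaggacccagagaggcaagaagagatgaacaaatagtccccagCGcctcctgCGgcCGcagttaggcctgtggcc
Hoxd8: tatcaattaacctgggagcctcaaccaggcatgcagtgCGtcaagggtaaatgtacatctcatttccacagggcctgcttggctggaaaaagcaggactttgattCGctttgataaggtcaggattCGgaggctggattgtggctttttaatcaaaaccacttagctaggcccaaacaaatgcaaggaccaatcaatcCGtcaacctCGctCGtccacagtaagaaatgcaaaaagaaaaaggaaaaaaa
Hoxc4: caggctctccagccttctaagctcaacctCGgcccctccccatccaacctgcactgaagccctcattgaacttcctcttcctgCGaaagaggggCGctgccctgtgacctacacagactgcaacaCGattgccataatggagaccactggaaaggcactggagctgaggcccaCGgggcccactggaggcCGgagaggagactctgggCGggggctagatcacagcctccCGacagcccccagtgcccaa

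The 4 windows differ in their CG content: 7 CG dinucleotides for Hoxa7, 13 for Hoxd9, 6 for Hoxd8 and 8 for Hoxc4. Promoter entries were found for 22 of the 39 members, with 24 windows among 32851, and 19 of the 24 (79.2%) held more than 6 CG, the median of all windows, beside 46.3% of all. Hoxa13 had 35 CG, Hoxd13 31 and Hoxd1 24, all 3 more than the genes with the highest levels. Hoxa5 with 28 CG and Hoxa6 with 24 stayed below 1 FPKM in every group. The E-box CANNTG, bound by basic helix-loop-helix factors such as Figla, was searched on both strands and was in 17 of 24 member windows (70.8%), beside 66.2% of all. The TATA motif TATAAA was in 4 member windows (16.7%), beside 12.4% of all, with 2 matches before Hoxd13. The homeodomain motifs TAATTA and TAATTG were in 2 (8.33%) and 1 (4.17%) member windows, beside 4.84% and 7.17% of all. Hoxd9 held 1 CANNTG match, and Hoxd8 held 1 CANNTG and 1 TAATTG match. These matches are descriptions of the letters. Expression was not measured per start site, and the GENCODE models of Hoxa7 and Hoxc4 begin 3281 and 15461 bases farther upstream than the RefSeq starts used here.

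**Figure D4:**
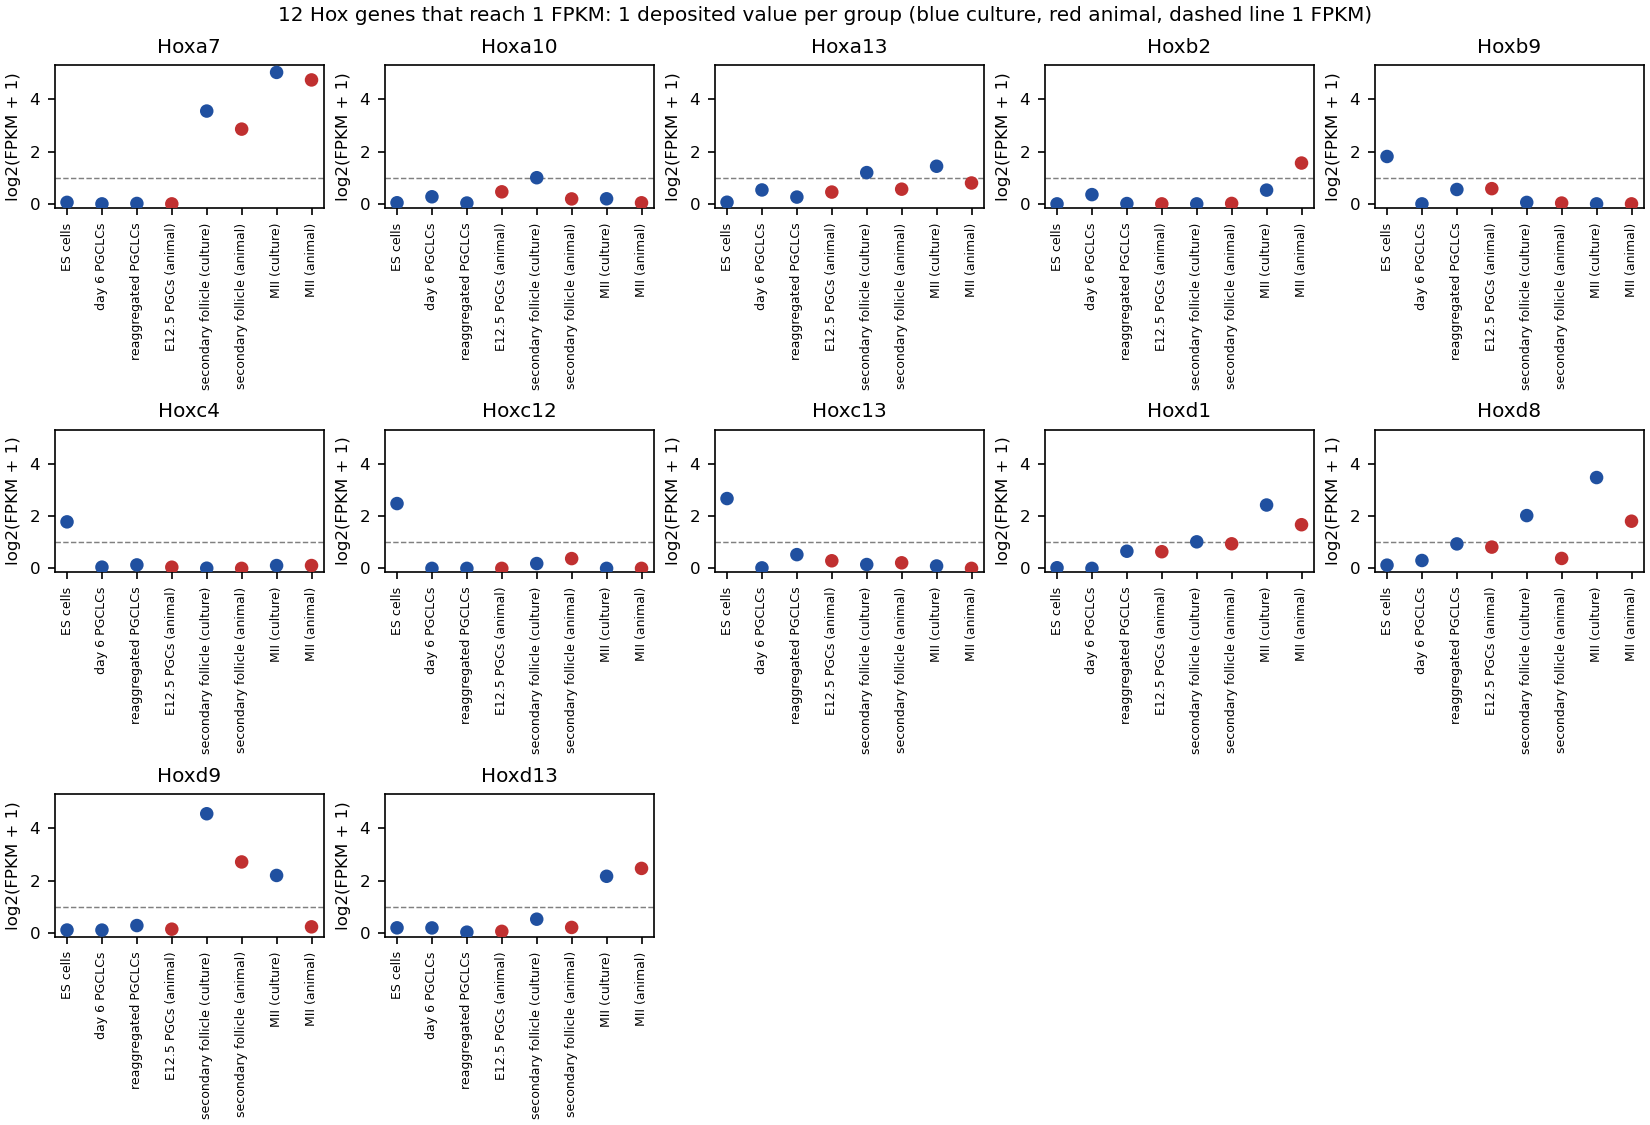
Levels of 12 of the 13 Hox genes that reach 1 FPKM, as log2(FPKM + 1), 1 panel per gene and 1 point per group (blue for culture, red for animal, dashed line at 1 FPKM). Hoxa7 and Hoxd9 are high in oocytes only, and Hoxb9, Hoxc4, Hoxc12 and Hoxc13 in ES cells only.

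Hoxa7, a central gene known for patterning thoracic vertebrae, lies on the minus strand at chr6:52214491-52221854 (GRCm38). It was at 0.0406 FPKM in ES cells, 0 in day 6 PGCLCs, 0.0108 in the reaggregated PGCLCs and 0 for E12.5 PGCs, and then at 10.7 and 6.25 FPKM in secondary follicle oocytes from culture and of the animal and at 31.6 and 25.7 FPKM in MII oocytes from culture and of the animal. All 4 oocyte groups were above all 4 others. Its level exceeded that of 87.3% of all genes in MII oocytes from culture and 84.9% in those of the animal. It alone made up 53.2% and 62.7% of the Hox sum there. Its neighbours stayed low: Hoxa9, 1245 bases away, reached at most 0.271 FPKM and Hoxa6, 5768 bases away, at most 0.275 FPKM. In the panels for single genes Hoxa7 is the highest point of all.

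Hoxd9, a posterior gene active in the lumbar region and the limb, lies at chr2:74697727-74700208. It was at 22.5 FPKM in secondary follicle oocytes from culture and 5.55 FPKM in those of the animal, and at 3.58 and 0.173 FPKM in the MII oocytes. Elsewhere it was at 0.0785 FPKM in ES cells, 0.0764 in day 6 PGCLCs, 0.214 in the reaggregated PGCLCs and 0.103 in E12.5 PGCs. The peak was at the secondary follicle in both routes, and MII oocytes of the animal were back within the range of the earlier groups. Hoxd9 made up 52.0% of the Hox sum in secondary follicle oocytes from culture and 35.4% in those of the animal. Hoxd10, 2621 bases away, reached at most 0.0571 FPKM.

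Hoxd8, a central gene 4406 bases from Hoxd9 at chr2:74704615-74707933, had another course. It was at 0.0890 FPKM in ES cells, 0.232 in day 6 PGCLCs, 0.912 in the reaggregated PGCLCs, 0.757 in E12.5 PGCs, 3.05 and 0.301 in secondary follicle oocytes from culture and of the animal, and 10.1 and 2.49 in the MII oocytes. It was higher at MII than at the secondary follicle in both routes, whereas Hoxd9 was lower, and at both oocyte stages it was higher in culture than in the animal.

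The step from germ cell to secondary follicle oocyte was followed in each route. In culture 3 members were higher, Hoxd9 (log2 ratio 4.28), Hoxa7 (3.53) and Hoxd8 (1.08), beside 25.2% of all genes, and 0 were lower, beside 26.4% (51.6% in either direction). In the animal 2 were higher, Hoxa7 (2.86) and Hoxd9 (2.57), beside 24.3%, and 0 lower, beside 25.9% (50.2% in either direction). The corresponding ratio of Hoxd8 in the animal was -0.43. Scaled to equal sums of all genes, Hoxd8 in culture was at 0.95, just inside 2-fold, and Hoxa10 at 1.12, and Hoxd8 was at 0.45 with a pseudocount of 5. The median over the 13 members was 0.36 in culture and 0.02 in the animal, beside -0.09 over all genes in each. The ratios of Hoxa13 (0.93) and Hoxa10 (0.97) in culture came close to 2-fold.

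From the secondary follicle to MII 5 members were higher in culture, among them Hoxd13 (log2 ratio 1.64), Hoxa7 (1.48), Hoxd8 (1.46) and Hoxd1 (1.41), beside 23.9% of all genes. In the animal 5 were higher, among them Hoxd13 (2.26), Hoxa7 (1.88), Hoxb2 (1.55) and Hoxd8 (1.42), beside 28.0%. Hoxd9 was the 1 member lower in each route, at -2.36 in culture and -2.48 in the animal, beside 28.6% and 33.1% of all genes. In either direction 52.5% of all genes were called in culture and 61.1% in the animal. All genes together summed to 616260 FPKM in MII oocytes from culture and 975407 FPKM in those of the animal, beside 349451 and 349772 FPKM in the secondary follicle oocytes, and scaling to equal sums changed several of these calls. Hoxd13 stayed higher (1.16 in culture, 1.34 in the animal) and Hoxd9 stayed lower (-3.04 and -2.88). Hoxa7 then gave 0.71 in culture and 0.50 in the animal, Hoxd8 0.77 and 0.62, Hoxd1 in culture 0.85 and Hoxb2 in the animal 0.88, all within 2-fold, while Hoxa10 in culture gave -1.03. That scaling moved the median of all compared genes from -0.08 to -0.50 in culture and from -0.09 to -0.74 in the animal. Quantile normalization kept 5 members higher and 1 lower in culture and gave 7 higher and 1 lower in the animal. It called 50.5% and 57.6% of all genes in either direction. The median of the 13 members was then 0.64 in culture (0.25 before) and 1.00 in the animal (0.24 before), beside 0.00 over all genes. MII and secondary follicle groups also serve in the other comparisons of oocytes, so those comparisons are not independent of these.

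Genes at both ends of the Hoxd cluster were highest in MII oocytes. Hoxd13, the most posterior gene of its cluster, which patterns digits and the hindgut, was at 3.48 FPKM in MII oocytes from culture and 4.52 FPKM in those of the animal. The other groups gave Hoxd13 0.143 FPKM in ES cells, 0.140 in day 6 PGCLCs, 0.0189 in the reaggregated PGCLCs, 0.0411 in E12.5 PGCs, and 0.437 and 0.155 in secondary follicle oocytes from culture and of the animal. Hoxd1, the most anterior gene of the cluster, was at 4.36 and 2.18 FPKM in MII oocytes from culture and of the animal and at 1.02 and 0.917 FPKM in the secondary follicle oocytes. It was at 0.0167 FPKM in ES cells, 0 in day 6 PGCLCs, 0.575 in the reaggregated PGCLCs and 0.555 in E12.5 PGCs. The 2 MII values of Hoxd13 stood apart from all others, while Hoxd1 was above 0.5 FPKM from the reaggregated PGCLCs and E12.5 PGCs on.

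Further members with a peak in oocytes reached between 1 and 2 FPKM. Hoxb2, a hindbrain gene, was at 1.95 FPKM in MII oocytes of the animal and 0.440 FPKM in those from culture, 0.278 in day 6 PGCLCs, 0.00852 in the reaggregated PGCLCs, 0.0116 in secondary follicle oocytes of the animal and 0 in ES cells, E12.5 PGCs and secondary follicle oocytes from culture. It was above 1 FPKM in MII oocytes of the animal alone. Hoxa13, a gene of the limb tip and the urogenital tract, was at 1.29 and 1.71 FPKM in secondary follicle and MII oocytes from culture and at 0.476 and 0.739 FPKM in those of the animal. It was at 0.0444 FPKM in ES cells, 0.446 in day 6 PGCLCs, 0.197 in the reaggregated PGCLCs and 0.367 in E12.5 PGCs. Hoxa10, which patterns the uterus, only just reached the mark, at 1.00 FPKM in secondary follicle oocytes from culture, and was at 0.0298 FPKM in ES cells, 0.207 in day 6 PGCLCs, 0.0225 in the reaggregated PGCLCs, 0.376 in E12.5 PGCs, 0.140 in secondary follicle oocytes of the animal, and 0.144 and 0.0289 in the MII oocytes.

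Culture and animal were compared at both oocyte stages. In secondary follicle oocytes Hoxd9 (log2 ratio 1.84) and Hoxd8 (1.64) were higher in culture, 2 members beside 1.74% of all genes, and 0 were lower, beside 0.660% (2.40% in either direction). In MII oocytes the members higher in culture were again Hoxd9 (1.97) and Hoxd8 (1.67), beside 12.4% of all genes, and Hoxb2 (-1.04) was lower, beside 9.45% (21.9% in either direction). Scaled to equal sums Hoxb2 gave -0.51 and Hoxd1 1.05, so that 3 members were higher and 0 lower. That scaling moved all genes the same way: 17.9% were called, 93.4% of them higher, and their median was 0.23. With a pseudocount of 5 Hoxd8 fell to 0.60 in secondary follicle oocytes and Hoxd9 to 0.73 in MII oocytes. Hoxa7, the member with the highest level, differed less, by 0.69 and 0.29 at the 2 stages. Hoxa10 (0.81) and Hoxa13 (0.63) in secondary follicle oocytes and Hoxd1 (0.75) and Hoxa13 (0.64) in MII oocytes also lay on the side of culture, within 2-fold. The median over the 13 members was 0.12 at the secondary follicle and 0.09 at MII, beside 0.00 and 0.01 over all genes.

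The remaining 26 members stayed below 1 FPKM in all 8 groups. They were Hoxa2, Hoxa3, Hoxa4, Hoxa5, Hoxa6, Hoxa9 and Hoxa11 in the first cluster and Hoxb1, Hoxb3, Hoxb4, Hoxb5, Hoxb6, Hoxb7, Hoxb8 and Hoxb13 in the second. In the others they were Hoxc5, Hoxc6, Hoxc8, Hoxc9, Hoxc10 and Hoxc11, and Hoxd3, Hoxd4, Hoxd10, Hoxd11 and Hoxd12. Nearest to the mark from below were Hoxb4, a gene also known from blood stem cells, at 0.836 FPKM in secondary follicle oocytes from culture, and Hoxa3, which patterns the pharynx, at 0.681 FPKM in MII oocytes from culture. Just above it lay Hoxa10 at 1.00 FPKM. Of the 26, 19 had their highest value between 0.1 and 0.5 FPKM, and 5 never reached 0.1 FPKM: Hoxa2, Hoxb3, Hoxc5, Hoxd3 and Hoxd10. Hoxa2 was the lowest of all, at most 0.0140 FPKM. The 26 were highest in ES cells in 5 cases, in the germ cell groups in 9 and in oocytes, which are 4 of the 8 groups, in 12. All these peaks lie below 1 FPKM, at levels without a stated precision. The shares of all genes that peak in these groups are not given here.

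Reads from some members may be shared with other genes, and the sources used here do not say whether the counting used the strand. In GENCODE M21, 9 members share exon bases with another gene on the same strand and 10 with a gene on the opposite strand. Hoxd3 and Hoxd4 share 62.3% and 52.3% of their exon bases with genes of the same strand, so that their values, at most 0.101 FPKM, are uncertain. Hoxa7 and Hoxb2 overlap the antisense genes Hoxaas3 and Hoxb3os, which were not among the symbols of the table. Hoxa11os, Hottip, Hoxd3os1 and Hotair were in the table, and their highest values were 0.0488, 0.0324, 0 and 0 FPKM.

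**Figure D5:**
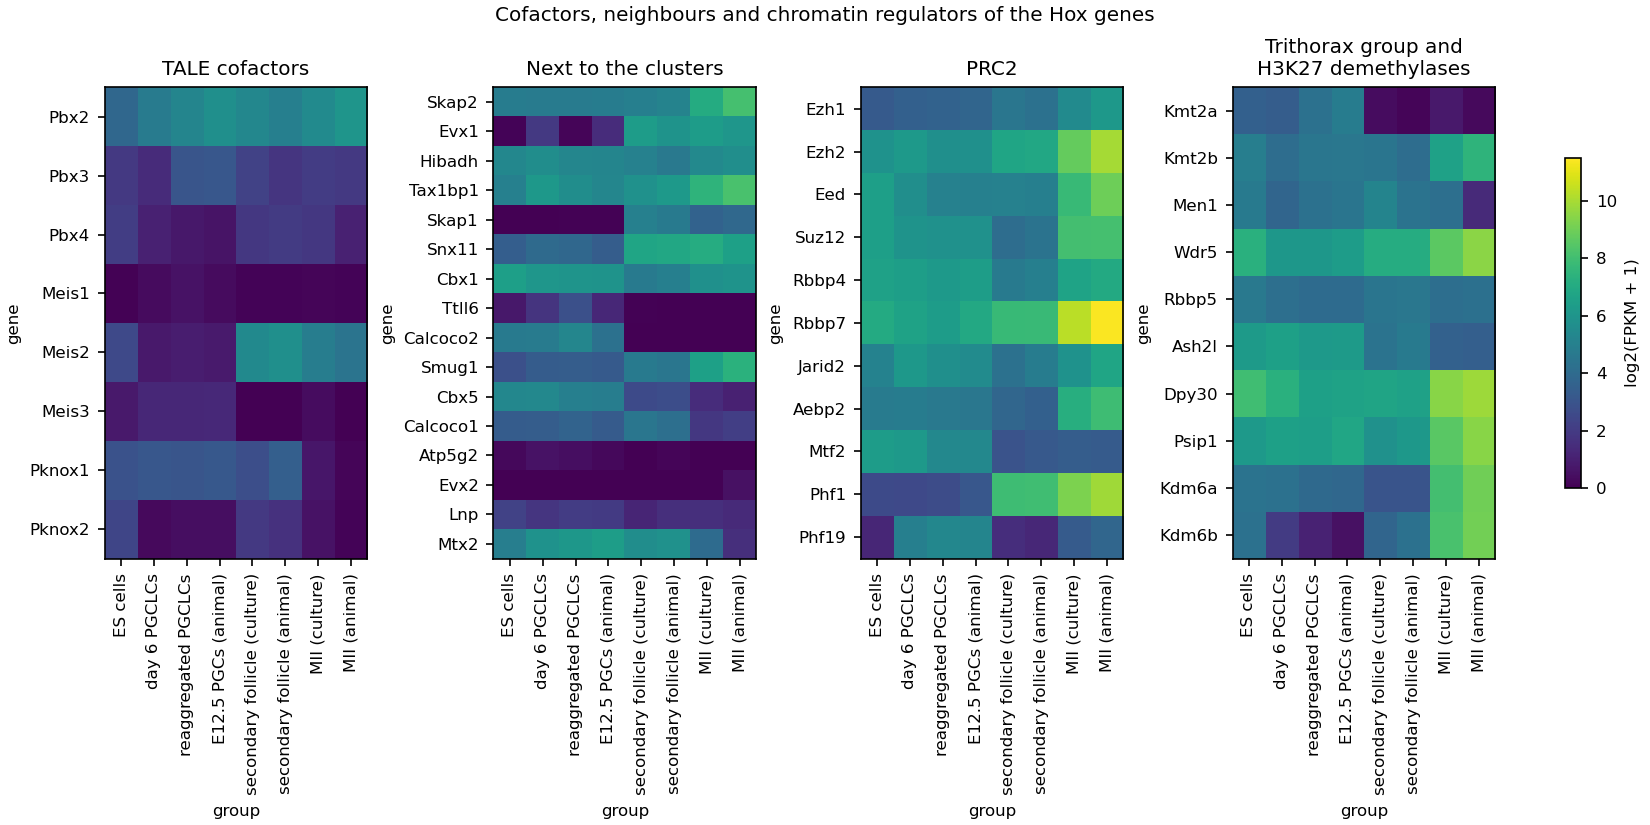
Levels as log2(FPKM + 1) of the TALE cofactors, the genes next to the Hox clusters, PRC2, and the trithorax group with the H3K27 demethylases (rows) in the 8 groups (columns). Meis2, Evx1 and Skap1 are brighter in the 4 oocyte groups than in the germ cell groups, and most PRC2 genes are brightest at MII.

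Genes next to the clusters were listed to see how far the pattern reached along the chromosome. Evx1, a homeobox gene 52.6 kb beyond the Hoxa cluster, was at 79.9 and 59.6 FPKM in secondary follicle oocytes from culture and of the animal and at 81.7 and 65.4 FPKM in MII oocytes, above every Hox gene. It was at 0.110 FPKM in the reaggregated PGCLCs, 1.75 in E12.5 PGCs, 2.71 in day 6 PGCLCs and 0.0977 in ES cells. Evx2, its relative 8.75 kb from Hoxd13, stayed at or below 0.441 FPKM in all groups. Skap1, an adaptor protein gene 96.3 kb from the Hoxb cluster, was at most 0.0402 FPKM before the oocyte and between 11.2 and 30.9 FPKM in the oocyte groups. Other neighbours went the other way, such as Calcoco2, from 38.2 FPKM in the reaggregated PGCLCs to 0.0132 FPKM in secondary follicle oocytes from culture. Of 14 neighbours compared, 4 were higher and 4 lower in that step in culture, and 4 higher and 3 lower in the animal. The counts of neighbours were near the background, which in culture was 25.2% of all genes higher and 26.4% lower, and in the animal 24.3% and 25.9%.

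The TALE cofactors, 8 of 9 compared, did not move as a group. In the step to the secondary follicle Meis2, Pknox2 and Pbx4 were higher in both routes, and Meis3 was lower. In the animal Pbx3 was lower too. In all 3 were higher and 2 lower in culture, beside 25.2% and 26.4% of all genes, and 3 higher and 3 lower in the animal, beside 24.3% and 25.9%. Meis2 was at 0.868 FPKM in the reaggregated PGCLCs and 0.796 for E12.5 PGCs, and at 43.3 and 51.7 FPKM in secondary follicle oocytes from culture and of the animal. Pbx2 was between 13.5 and 62.6 FPKM in all 8 groups. The list's median was -0.09 in culture and -0.23 in the animal, beside -0.09 over all genes in each.

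Chromatin regulators of the Hox clusters were compared over the same steps. PRC2, the complex that methylates histone H3 at lysine 27, had 11 members on its list, and from the secondary follicle to MII 9 were higher in culture and 10 in the animal, with none lower. The median was 1.93 and 2.51, beside -0.08 and -0.09 over all genes. Ezh2, the main enzyme, was at 108 and 118 FPKM in secondary follicle oocytes from culture and of the animal and at 440 and 994 FPKM in MII oocytes. Scaled to equal sums 7 were higher in culture and 6 in the animal, and 1 was lower in the animal. Of the 10 trithorax genes and H3K27 demethylases 6 were higher at MII in each route and 2 were lower in the animal, with Kdm6a, a demethylase of the same lysine, from 7.04 to 264 FPKM in culture. With equal sums 5 were higher and 3 lower in each route. Kmt2a, the trithorax relative that maintains Hox expression in the embryo, was at 18.4 FPKM in the reaggregated PGCLCs and 27.3 FPKM in E12.5 PGCs, and at 0.307 and 0.112 FPKM in secondary follicle oocytes from culture and of the animal. PRC1, which compacts marked chromatin, was mixed at MII, with 7 of 19 subunits higher and 5 lower in culture, and 8 higher and 6 lower in the animal. Of all genes 23.9% were higher and 28.6% lower at that step in culture, and 28.0% and 33.1% in the animal, which also stands beside the PRC2 and trithorax counts. Its median of 0.33 in culture and 0.48 in the animal turned to -0.49 and -0.66 with equal sums.

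Posterior axis factors that act upstream of Hox genes in the embryo were compared in the germ cell groups. Cdx2, an activator of posterior Hox genes, was at 1.09 FPKM in ES cells, 8.07 in day 6 PGCLCs, 2.64 in the reaggregated PGCLCs and 19.1 for E12.5 PGCs, and at most 0.243 FPKM in oocytes. No Hox gene reached 1 FPKM in the 3 groups where Cdx2 was highest. A link between Cdx2 and the Hox levels was not tested. Of the 7 factors compared, 3 were higher (Cdx2, Evx1 and Wnt3) and 1 lower (Nkx1-2) in day 6 PGCLCs than in ES cells, and 3 were lower (Cdx2, Cdx1 and Evx1) in the reaggregated PGCLCs than in E12.5 PGCs. Of all genes 9.63% were higher and 12.0% lower in the first of these comparisons, and 0.786% lower in the second. Fgf8, a growth factor of the embryonic tail bud, was between 14.6 and 59.4 FPKM in the oocyte groups and at most 2.29 FPKM in the others. Pdx1, a relative of the Hox genes in the ParaHox cluster that is known from the pancreas, was at 10.6 and 8.47 FPKM in secondary follicle oocytes from culture and of the animal, 4.55 and 4.46 FPKM in MII oocytes and at most 0.0280 FPKM elsewhere. Of the 10 retinoic acid genes compared, 3 were higher (Stra8, Crabp2 and Rara) and 0 lower in reaggregated than in day 6 PGCLCs, the step at which 0 Hox genes were called, beside 5.15% and 5.04% of all genes. With a pseudocount of 0.1, 4 Hox genes were higher and 3 lower at that step, beside 21.1% of all genes in either direction. A link between retinoic acid and the Hox levels was not tested.

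Several somatic cell types surround oocytes and express Hox genes, so their markers are given beside the oocyte values. The 9 granulosa markers summed to 7.75 and 7.80 FPKM in secondary follicle oocytes from culture and of the animal and to 67.7 and 52.8 FPKM in MII oocytes, led there by Cyp19a1 (27.1 FPKM in culture and 42.2 FPKM in the animal). Inha, Gja1 and Inhba were higher past 2-fold in MII oocytes from culture, beside 12.4% of all genes. Inha was at 19.3 FPKM in culture and 2.55 FPKM in the animal, Gja1 at 9.72 and 2.94 FPKM, and Inhba at 5.89 and 2.25 FPKM. Foxl2, Amhr2 and Fst lay on the side of culture within 2-fold. Amh went the other way, as Cyp19a1 did, at 0.0509 FPKM in culture and 0.297 FPKM in the animal. Fshr, which defines granulosa cells, was at 0.546 and 0.735 FPKM in secondary follicle oocytes and listed at 0 in both MII groups. The 10 gonadal soma markers summed to 23.1 and 23.9 FPKM in secondary follicle oocytes and to 107 and 84.6 FPKM in MII oocytes, led by Gata4 in 3 of these 4 groups and by Emx2 in secondary follicle oocytes of the animal. Vim was at 14.9 FPKM in MII oocytes from culture and 2.24 FPKM in those of the animal. Col3a1 was at or below 0.0567 FPKM in all 4, and Tcf21 at or below 0.0162 FPKM. The 4 mesonephros markers summed to between 1.98 and 6.07 FPKM in oocytes, nearly all Pax2 in secondary follicle oocytes. The part of such cells in the Hoxa7, Hoxd8 and Hoxd9 values was not tested. The mesoderm markers, 6 in number, summed to at most 0.193 FPKM in the oocyte groups and to between 1.44 and 5.72 FPKM in the 3 germ cell groups.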

How the data were processed

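Poly(A) RNA from 23 samples in 8 groups was sequenced with directional libraries. The authors deposited FPKM values, 1 for each of 22784 symbols in each group. Per the submitters' processing notes, TopHat2, Bowtie2 2.0.13, Cufflinks and Cuffdiff 2.2.1 were used with mm10. The annotation, the filters, the depth and how the samples of a group were combined are not given in the sources used here. Values per sample were not analysed here.

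Groups follow the labels. The 9 comparisons are differences of log2(FPKM + 1) over the 14242 genes with at least 1 FPKM in at least 1 group, called past 2-fold, with no test. The steps were tested on simulated data. Only genes at higher levels than most Hox genes were changed in the simulation, so it does not bear on calls at low levels. Members, gene lists and markers were chosen with earlier results of these data known. Of 142 listed symbols 140 matched directly, 1 through an alias and 1 was missing. Members reaching 1 FPKM are named with their values and the others by name; 1 member and 1 cofactor are counted but not reported here. From other lists at most 6 called genes per comparison were eligible, and genes the list turns on. Further genes, such as single markers, were chosen after their values were seen.

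Gene positions are from GENCODE M21 (GRCm38, the same assembly as mm10). Promoter windows are the RefSeq table's for GRCm38.p6, trimmed to the 250 bases before the start. Alternatives were pseudocounts of 0.1 and 5, a fold of 1.5, other FPKM minimums, quantile normalization (values of 0 kept at 0), median centring and scaling to equal sums. Python 3.11.15, pandas 2.3.3, NumPy 2.4.6 and matplotlib 3.10.9 were used.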

Additional observations from a re-analysis of the deposited data

How the results depend on the processing

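Of 585 recomputed log2 ratios of the 13 compared Hox genes, 523 kept their side of 2-fold, 25 moved inside it and 37 moved past it. The number of calls past 2-fold that reversed was 0. Ratios within 2-fold could change sign, as Hoxd1 did for reaggregated PGCLCs against E12.5 PGCs. It went from 0.02 to -0.07 with quantile normalization. With a pseudocount of 0.1 the count of members called became 1 in place of 0 for reaggregated PGCLCs against E12.5 PGCs, 5 in place of 2 for secondary follicle oocytes from culture against animal, 7 in place of 4 for day 6 PGCLCs against ES cells, 7 in place of 0 for reaggregated against day 6 PGCLCs, 9 in place of 3 for the step to the secondary follicle in culture and 5 in place of 2 in the animal. Of all genes 7.21%, 7.23%, 32.7%, 21.1%, 63.3% and 62.3% were then called, in the order of these comparisons. These shares stood in place of 2.18%, 2.40%, 21.6%, 10.2%, 51.6% and 50.2%. With a pseudocount of 5 the count of members became 1, 1 and 1 for culture against animal at the secondary follicle (2 before) and at MII (3 before) and for day 6 PGCLCs against ES cells, and 2 for the step to MII in each route (6 before). Of all genes 0.477%, 10.4% and 9.48% were then called in the first 3 comparisons. At the step to MII 35.7% were called in culture and 44.1% in the animal. With a fold of 1.5 the count of members became 5 at both oocyte stages of culture against animal, 2 for reaggregated against day 6 PGCLCs and 5 for the step to the secondary follicle in culture, which centring on the median also gave (5), with Hoxa10 at 1.06 and Hoxa13 at 1.02. The fold of 1.5 called 9.93% and 44.7% of all genes in culture against animal at the secondary follicle and MII. For reaggregated against day 6 PGCLCs it called 27.4%, and for the step to the secondary follicle in culture 69.9% (51.0% with centring). With equal sums the step to MII gave 3 members called in culture and 2 in the animal, beside 54.4% and 60.9% of all genes. Members at 1 FPKM became 1 for reaggregated PGCLCs, 1 for E12.5 PGCs and 3 in MII oocytes of the animal with equal sums, and the Hox sums of these groups 6.77, 6.33 and 18.3 FPKM. A minimum of 0.5 FPKM gave 2 for reaggregated PGCLCs and 2 for E12.5 PGCs, and one of 2 FPKM gave 3 in secondary follicle oocytes from culture. The shares of all genes that reach the mark with equal sums or with these minimums are not given here. Those settings change the shares of all genes too, so these counts are not results about the Hox genes alone. Equal sums shifted the median of all compared genes to -0.38 (culture) and -0.34 (animal) at the step to the secondary follicle, to 0.23 for MII oocytes from culture against animal and to 0.11 for reaggregated against day 6 PGCLCs. The share of higher genes among all genes called went from 48.9% to 38.6% and from 48.5% to 39.2% at the step to the secondary follicle in culture and animal, from 45.6% to 27.5% and from 45.8% to 25.0% at the step to MII, from 56.8% to 93.4% for MII oocytes from culture against animal and from 50.5% to 71.4% for reaggregated against day 6 PGCLCs. The cause of these changes was not tested beyond the setting itself. No paired analysis was possible because the table holds 1 value per gene and group, so replicate numbers could not be used and no sample could be left out. Depth is unknown, so values near 0 FPKM have no stated precision.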
